A study of Mus musculus with 24 samples.

Results

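The genes described here are 33 genes for secreted blood plasma proteins that are typical of liver, followed across 3 stages of diaphragm development in the mouse. They were chosen as a named set, from albumin (Alb) and alpha-fetoprotein (Afp) to coagulation factors and complement, with earlier results of these data known. All 33 of 33 had a probe set that belongs to 1 gene, out of 19351 genes measured. Only Fga had a second such probe set, and the brighter one was used. RNA came from C57BL/6J embryos, without any mutation or treatment, and each of the 3 stages, E11.5, E12.5 and E16.5, has 8 arrays. At the 2 earlier stages the tissue was the pleuroperitoneal fold, a ridge on each side of the body wall that gives rise to much of the diaphragm. At E16.5 it was the muscular diaphragm, which the array titles still name as the fold. Tissue was cut by laser capture from cryosections that were transverse for the folds and sagittal for the E16.5 diaphragm, so the effects of plane and stage cannot be told apart at the second step. The labels do not say which embryo, or how many embryos, an array came from, and p-values therefore measure the spread between arrays.

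Plasma proteins of this kind are made mainly by hepatocytes, the main cell type of the liver, which secrete them into the blood. In the embryo several of them, among them albumin's fetal relative Afp, transferrin and apolipoproteins, are also made by the visceral endoderm of the yolk sac. The liver bud grows out of the foregut into the septum transversum, the same sheet of mesenchyme that contributes to the diaphragm, and the 2 organs stay in contact. Genes of this class are known to share promoter and enhancer sites for a small set of liver-enriched transcription factors, FOXA and C/EBP proteins among them. Several also lie next to each other in the genome. Among the 33 genes, Alb and Afp were neighbours on chromosome 5, Fgg, Fga and Fgb on chromosome 3, Itih4, Itih3 and Itih1 on chromosome 14, C8b and C8a on chromosome 4, and Ahsg and Fetub on chromosome 16, with 0 protein-coding genes between neighbours.

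Promoter sequences were available in the RefSeq table (GRCm38.p6) for 27 of the 33 genes, in 30 promoters. The 6 genes without an entry were Trf, Ttr, Plg, Proc, Kng1 and Serpina6. The 250 bases before each gene start were searched on both strands for the TATA box letters TATAAA, with no mismatch allowed and no other motif searched. The letters were present in 6 of the 30 promoters (20%), those of Afp, Fetub, Rbp4, Apob, Vtn and Apoa2, against 4063 of 32851 promoters of all genes (12.4%). A match describes letters in a window and is not evidence of use in this tissue, and a window without one says nothing about the factor that binds them. The sequences of 5 genes are shown because they hold the neighbours Alb and Afp, both called higher at each step, the neighbours Ahsg and Fetub, of which Ahsg was called and Fetub was not, and the retinol carrier gene Rbp4, and capitals mark the matching 6 bases. They lie at chr5:90460620-90460869 (+ strand) for Alb, chr5:90490464-90490713 (+ strand) for Afp, chr16:22891765-22892014 (+ strand) for Ahsg, chr16:22918132-22918381 (+ strand) for Fetub and chr19:38124812-38125061 (- strand) for Rbp4, each written 5′ to 3′ and ending at the base before a gene start of that table. Fetub and Rbp4 have 2 starts there, and the promoter with the letters is shown, which for Rbp4 is that of the start further downstream.
Alb: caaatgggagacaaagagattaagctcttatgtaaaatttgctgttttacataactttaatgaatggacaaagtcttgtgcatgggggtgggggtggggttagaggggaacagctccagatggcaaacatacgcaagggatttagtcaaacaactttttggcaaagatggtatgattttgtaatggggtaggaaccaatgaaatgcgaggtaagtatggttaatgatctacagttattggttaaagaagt
Afp: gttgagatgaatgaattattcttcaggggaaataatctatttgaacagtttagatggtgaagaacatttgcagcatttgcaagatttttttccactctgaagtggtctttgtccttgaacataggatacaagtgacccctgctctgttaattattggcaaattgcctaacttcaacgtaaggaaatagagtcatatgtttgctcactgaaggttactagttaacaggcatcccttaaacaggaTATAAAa
Ahsg: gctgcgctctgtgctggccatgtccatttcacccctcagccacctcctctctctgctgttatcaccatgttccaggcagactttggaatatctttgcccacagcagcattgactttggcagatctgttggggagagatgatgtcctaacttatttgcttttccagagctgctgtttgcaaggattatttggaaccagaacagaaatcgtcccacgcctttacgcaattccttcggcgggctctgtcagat
Fetub: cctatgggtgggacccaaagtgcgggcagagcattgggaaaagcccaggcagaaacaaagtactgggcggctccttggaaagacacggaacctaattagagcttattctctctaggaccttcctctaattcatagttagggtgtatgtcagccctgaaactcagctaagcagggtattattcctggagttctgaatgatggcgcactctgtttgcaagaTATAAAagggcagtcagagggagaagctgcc
Rbp4: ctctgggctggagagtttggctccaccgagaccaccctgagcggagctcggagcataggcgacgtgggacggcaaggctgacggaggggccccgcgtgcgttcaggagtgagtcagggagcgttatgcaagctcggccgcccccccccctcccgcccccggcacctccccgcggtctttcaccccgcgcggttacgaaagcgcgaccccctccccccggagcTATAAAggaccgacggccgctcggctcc
The match began 7 bases before the start in Afp, 28 in Rbp4 and 31 in Fetub, and the windows of Alb and Ahsg hold none.

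Values are log2 intensities, on which a difference of 1 is a 2-fold change. The median of an array over genes lay between 7.45 and 7.57 and its lower quartile between 6.40 and 6.64. Below that quartile a signal is not told from background here, and a change from such a level, on over 4 of 8 arrays, is at best a lower bound. This held for 13 of the 33 genes at E11.5, which were Alb, Afp, Ahsg, Fetub, Serpina6, Apoh, Fga, Fgb, Fgg, Plg, Proc, Kng1 and C9. It held for 5 at E12.5 (Fetub, Apoh, Proc, Kng1 and C9) and for 2 at E16.5 (Fetub and C9). At the other end, Alb and Apoa2 were among the 20 brightest genes of 1 array at E12.5, and Apoa2 on 2 arrays at E16.5. The tissue labels were checked against marker genes. The mean of 16 skeletal muscle genes per array lay between 7.94 and 9.23 at E11.5, 8.16 and 11.12 at E12.5 and 11.96 and 12.57 at E16.5. The mean of 14 fold and mesothelium genes lay between 8.97 and 9.53 at E11.5, 8.80 and 9.31 at E12.5 and 8.0 and 8.62 at E16.5.

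One array stood apart and is described before the results that rest on it. E12.5 replicate 2 was the highest of the 8 E12.5 arrays in 33 of 33 plasma protein genes. Its value exceeded the median of the other 7 by 0.75 (C8a) to 5.28 (Fgg), with a median excess of 2.88, and in 21 genes it lay above all 8 arrays of E16.5. The mean of the 33 genes on this array was 10.36, against 7.06 to 8.55 on the other 7. Liver enzymes and transporters, a list of 30 genes, were highest on this array in 27 and above every E16.5 array in 27. Its 16 muscle genes had the lowest mean of the stage, 8.16, and 0 of 16 were highest there, while its fold and mesothelium mean of 9.0 lay within the range of the stage. Of those 14 fold and mesothelium genes, 1 was highest there and 9 lay above every E16.5 array. Lying above E16.5 was therefore not particular to liver genes, and shares over all genes are not given for these counts. Its mean over 12 genes of red blood cell precursors, 10.35, was the highest of the stage.

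The same array also carried transcripts known from liver of about birth and later, a list of 10 genes chosen after their values were seen. All 10 of 10 were higher on it than on the other 23 arrays, a count that this choice can produce and that is only a description. Their mean was 10.11 on E12.5 replicate 2, against 5.05 to 5.63 on the other 23. Cyp2c29, a drug-metabolising cytochrome P450, was at 11.05 on this array, against 4.37 to 4.65 on the other 7 at E12.5 and 4.27 to 5.09 at E16.5. Hamp, which encodes the iron-regulating hormone hepcidin, was at 12.1, against 4.72 to 5.43 on the other 7 and 4.74 to 7.64 at E16.5. Mup3, a major urinary protein, was at 9.47, against 4.37 to 4.56 on the other 7 and 4.22 to 4.62 at E16.5. Cyp3a16, a cytochrome P450 known from fetal mouse liver, was at 5.05 on this array. It was at 4.37 to 4.55 on the other 7 at E12.5 and 4.49 to 7.51 at E16.5. The plot of list means shows these lists together. In all, 281 genes were at least 1 higher on this array than on the highest of the other 7, and 26 of the 33 plasma protein genes were among them. What this array's tissue held was not tested, and results at E12.5 are given with and without it.

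**Figure D1:**
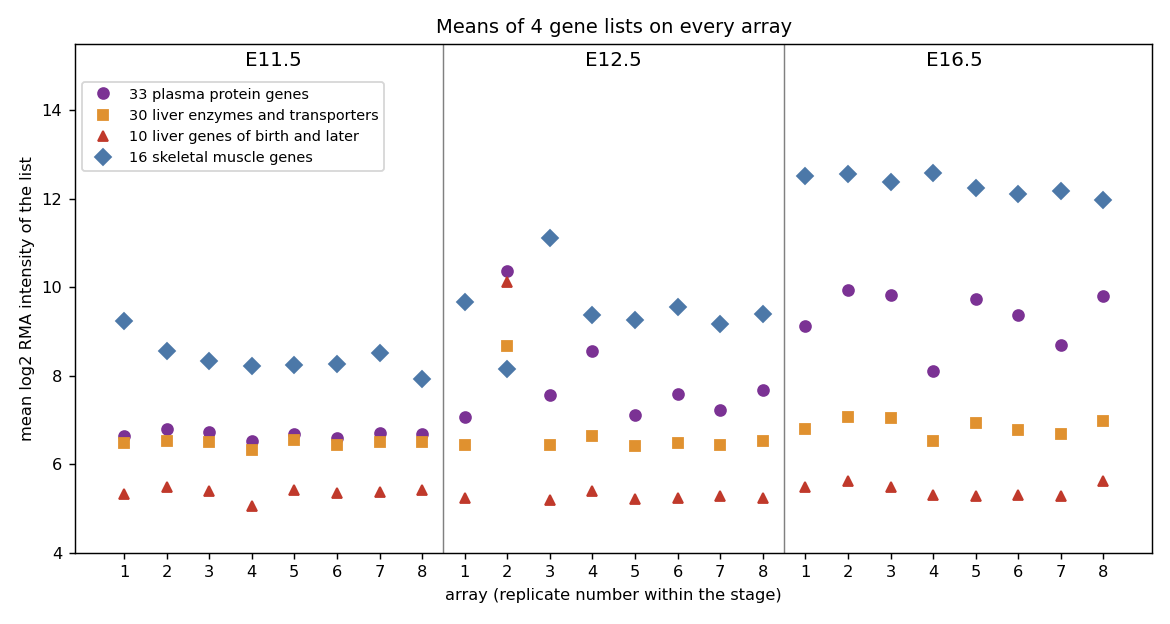
Mean log2 intensity (y axis) of 4 gene lists on each of the 24 arrays (x axis, replicate number within E11.5, E12.5 and E16.5). On E12.5 replicate 2 the 33 plasma protein genes averaged 10.36, and the 16 muscle genes were at 8.16, the lowest of that stage. The 10 liver genes of birth and later averaged 10.11 on that array, against 5.05 to 5.63 on the other 23 arrays. These 10 were chosen after their values were seen, and Cyp2e1, Tdo2 and Tat are also among the liver enzymes and transporters.

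A second array at E12.5, replicate 4, was the next highest in 27 of the 33 genes, with a mean of 8.55. Its mean over the 10 later liver genes was 5.39, and Cyp2c29 was at 4.61. At E16.5, replicate 4 was the lowest array in 25 of the 33 genes, with a mean of 8.12 against a stage median of 9.56. Values scattered more in this set than over all genes at the 2 later stages and not at E11.5. The median SD over the 33 genes was 0.19, 1.30 and 0.79 in the order of the stages, against 0.21, 0.17 and 0.19 over all genes. The E12.5 figure includes replicate 2, without which the SD fell from 1.58 to 1.15 for Alb and from 1.91 to 0.68 for Fgg. At E11.5, 13 of the 33 genes were below the lower quartile on over 4 arrays. In tissue mixtures, fewer cells of a type and less RNA per cell cannot be told apart.

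**Figure D2:**
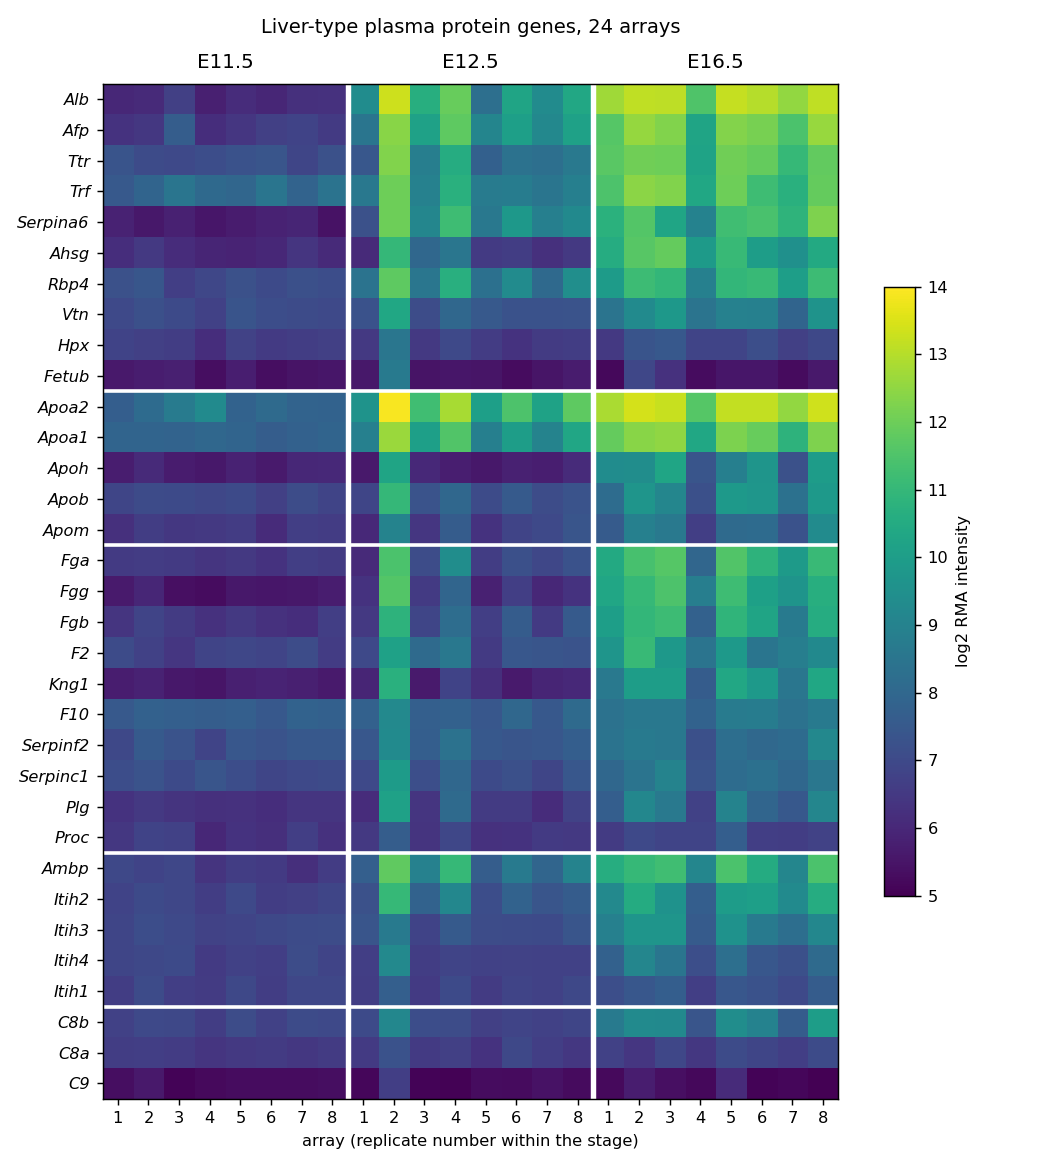
Log2 intensity (colour) of the 33 plasma protein genes (rows, in 5 role groups parted by white lines, from carriers at the top to terminal complement) on 24 arrays (columns, replicate number within each stage). E11.5 is dark in most rows, E12.5 replicate 2 is bright in most, and Fetub, Hpx, Proc, C8a and C9 stay dark at E16.5.

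At the first step, E12.5 against E11.5, 7 of the 33 genes were higher and 0 lower (limma, adjusted p under 0.05). Over all genes 0.331% were called higher and 0.0568% lower in this comparison. The 7 were Alb, Afp, Serpina6 and Rbp4 among the carriers, the apolipoprotein genes Apoa1 and Apoa2, and Ambp. The median change of the 33 was 0.83, against -0.03 over all genes. Without E12.5 replicate 2 the count was 8, since Ttr joined, with 0.677% of all genes called higher and 0.103% lower, and the median was 0.35. In 10 of the 33 genes every E12.5 array lay above every E11.5 array, which was so for 0.093% of all genes (18). These 10 were the 7 above with Trf, Ttr and Itih2, and they were the same 10 without replicate 2, against 0.269% of all genes. With 1 limma weight per stage, estimated over all genes, 7 of the 33 were higher (25 and 28 in the later comparisons, as without weights). Such weights do not follow the spread of the 33 genes, which differs from that over all genes, so these counts do not address it. With an unmoderated unequal-variance test, which estimates each gene's spread from the 2 stages alone, 0 of the 33 genes and 0 genes in all passed, although 11 of the 33 were higher at an unadjusted p under 0.05. Without replicate 2 the unequal-variance test called 0 of the 33 and 1 gene in all (Alb had an adjusted p of 0.0871), and 15 of the 33 were higher at an unadjusted p under 0.05.

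At the second step, E16.5 against E12.5, 25 of the 33 genes were higher and 0 lower, against 11.49% of all genes called higher and 15.6% lower. The median change of the 33 was 1.47, against -0.02 over all genes. Without E12.5 replicate 2, 30 were higher, all but Fetub, C8a and C9, with a median of 1.77. Over all genes 11.77% were then called higher and 15.4% lower. With all arrays 0 of the 33 had stages that did not overlap (4.69% of all genes), and in each of them replicate 2 lay above the lowest E16.5 array. Without that array 7 did (5.33% of all genes): Ahsg, Apoh, Fgg, Kng1, Itih3, Itih4 and C8b. The unmoderated unequal-variance test called 13 of the 33 higher with all arrays and 27 without replicate 2, against 2085 and 2179 of 19351 genes. Without E16.5 replicates 5 to 8, 15 of the 33 were higher, against 2271 of 19351 genes. Of the 25 calls, 17 held with any 1 of the 24 arrays left out. The other 8, Serpina6, Rbp4, Apob, Apom, F10, Ambp, Itih1 and Itih4, were lost without some single array, between 2 arrays for F10 and 19 for Apob, with an adjusted p of up to 0.094. The count was lowest, 17, without E12.5 replicate 5 or 7.

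Over the whole span, E16.5 against E11.5, 28 of the 33 genes were higher and 0 lower, against 13.85% and 19.63% of all genes. The median change was 2.63, against -0.08 over all genes. The size of these changes involves no E12.5 array, but the spread is estimated from all 24, and the count was 30 without E12.5 replicate 2 and 29 in a fit of these 2 stages alone. In 23 of the 33 genes every E16.5 array lay above every E11.5 array, against 5.22% of all genes. Without E16.5 replicate 4 this was so for 27, against 5.41%. The 5 genes not past the threshold were Fetub, Hpx, Proc, C8a and C9, of which Hpx (adjusted p = 0.0306) and Proc (adjusted p = 0.0153) passed without E12.5 replicate 2. The 3 comparisons share their arrays pairwise, so they are not independent of each other. The difference was the larger at the first step in 12 genes and at the second step in 21. Without E12.5 replicate 2 it was the larger at the first step in 7 (Alb, Afp, Rbp4, Serpina6, Apoa1, Apoa2 and Ambp) and at the second in 26. The first step is at best a lower bound in the 13 genes below the lower quartile at E11.5. So is the second in the 5 below it at E12.5, which limits the comparison of the steps in those genes.

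**Figure D3:**
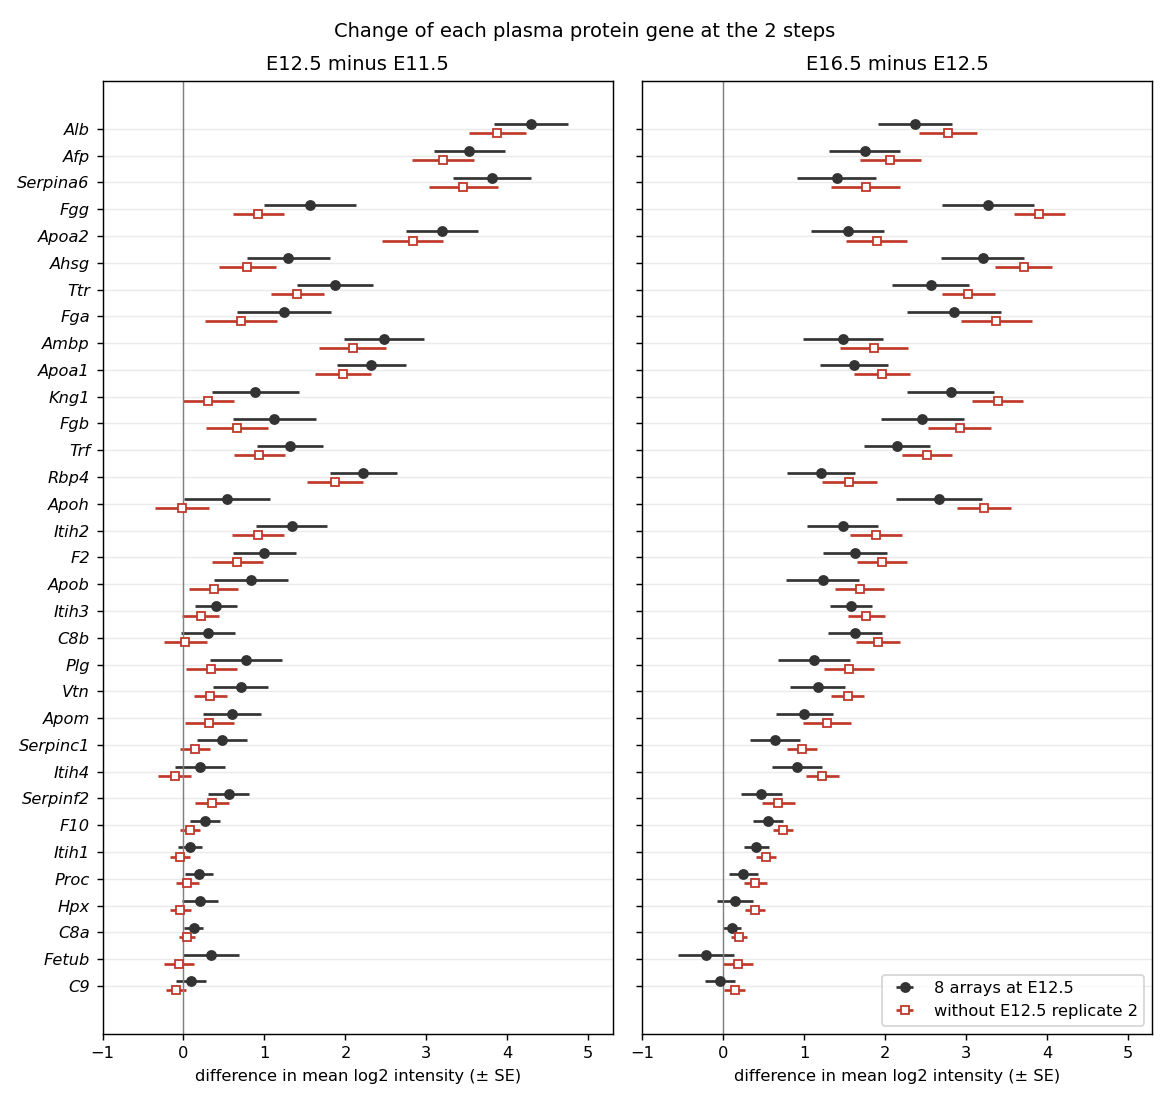
Change in mean log2 intensity with its SE (x axis) of each of the 33 genes (y axis, ordered by the change from E11.5 to E16.5) at the first step (left, E12.5 minus E11.5) and the second (right, E16.5 minus E12.5). Filled points use all 8 arrays of E12.5, open squares leave out replicate 2, without which first-step changes are smaller and second-step changes larger. Alb changed by 4.29 at the first step and 2.36 at the second, and Fgg by 1.56 and 3.27.

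The carriers of blood held the largest early changes. Of 10 genes, 4 were higher at E12.5 than at E11.5, 8 were higher at E16.5 than at E12.5, and 8 over the span. Over all genes these shares were 0.331%, 11.49% and 13.85%. Alb, which encodes albumin, the most abundant plasma protein, had lowest, median and highest values of 5.78, 6.11 and 6.70 at E11.5, 8.30, 10.32 and 13.32 at E12.5 and 11.53, 13.06 and 13.22 at E16.5. The E11.5 arrays lay apart from both later stages, while E12.5 replicate 2 reached above all of E16.5. The change was 4.29 ± 0.46 (SE) at the first step (19.5-fold, adjusted p = 3.09e-05) and 2.36 ± 0.46 at the second (5.15-fold, adjusted p = 0.000277), and 3.88 ± 0.35 and 2.78 ± 0.35 without replicate 2. Afp, the fetal albumin, was at 6.17, 6.49 and 7.66 at E11.5, 8.49, 10.12 and 12.41 at E12.5 and 10.25, 12.22 and 12.61 at E16.5. It changed by 3.53 ± 0.44 (adjusted p = 0.000228) and then by 1.74 ± 0.44 (adjusted p = 0.00336), with the larger difference at the first step, as in its neighbour Alb. Serpina6, corticosteroid-binding globulin, was at 5.45, 5.74 and 5.94 at E11.5, 7.24, 9.20 and 12.02 at E12.5 and 8.99, 11.05 and 12.27 at E16.5. Its first step, 3.81 ± 0.49 (adjusted p = 0.000282), was larger than its second, 1.40 ± 0.49 (adjusted p = 0.0333). Rbp4 encodes the plasma carrier of retinol, the vitamin whose product retinoic acid is known to matter for closure of the diaphragm. Rbp4 was at 6.68, 7.16 and 7.41 at E11.5, 8.08, 8.93 and 11.77 at E12.5 and 8.93, 10.96 and 11.18 at E16.5. It changed by 2.22 ± 0.42 (adjusted p = 0.0161) and by 1.21 ± 0.42 (adjusted p = 0.0329), and by 1.87 ± 0.34 and 1.56 ± 0.34 without replicate 2.

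Trf and Ttr had the larger difference at the second step. Trf, transferrin, which carries iron, was at 7.52, 8.02 and 8.49 at E11.5, 8.5, 8.84 and 12.02 at E12.5 and 10.36, 11.68 and 12.43 at E16.5. Ttr, transthyretin, which binds thyroid hormone and retinol-loaded RBP4, was at 6.89, 7.18 and 7.39 at E11.5, 7.43, 8.52 and 12.30 at E12.5 and 10.22, 11.86 and 12.05 at E16.5. In both genes the E12.5 arrays lay just above those of E11.5 without overlap. The first step did not pass the threshold with all arrays (Trf 1.31 ± 0.41, adjusted p = 0.163; Ttr 1.87 ± 0.47, adjusted p = 0.0791). Without replicate 2 Ttr passed, with 1.41 ± 0.33 (adjusted p = 0.0429), and Trf did not (adjusted p = 0.2). Both were higher at E16.5 than at E12.5, Trf by 2.14 ± 0.41 (adjusted p = 0.000234) and Ttr by 2.56 ± 0.47 (adjusted p = 0.000157).

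Ahsg and Vtn were called at the second step and not at the first. Ahsg, fetuin-A, an inhibitor of mineral deposition, was at 5.90, 6.10 and 6.51 at E11.5, 6.07, 6.57 and 10.98 at E12.5 and 9.51, 10.51 and 11.88 at E16.5. Apart from E12.5 replicates 2, 3 and 4, its E12.5 arrays were close to those of E11.5, and the second step of 3.20 ± 0.51 (9.20-fold, adjusted p = 2.67e-05) was 3.71 ± 0.35 without replicate 2. Vtn, the adhesive protein vitronectin, was at 6.73, 7.04 and 7.35 at E11.5, 7.11, 7.30 and 10.36 at E12.5 and 7.90, 8.94 and 9.80 at E16.5, with a second step of 1.16 ± 0.34 (adjusted p = 0.0121). Fetub, fetuin-B, is the neighbour of Ahsg and differed from it in kind. Its values were 5.32, 5.59 and 5.78 at E11.5, 5.29, 5.53 and 8.66 at E12.5 and 5.18, 5.55 and 6.92 at E16.5. All but 1 array at each of the later stages were below their lower quartile, and the change over the span was 0.13 ± 0.35 (adjusted p = 0.796). Hpx, the haem carrier hemopexin, was at 6.19, 6.68 and 6.80 at E11.5, 6.32, 6.58 and 8.52 at E12.5 and 6.48, 6.90 and 7.47 at E16.5. Its second step was 0.15 ± 0.22 with all arrays (adjusted p = 0.704) and 0.39 ± 0.13 without replicate 2 (adjusted p = 0.0235).

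**Figure D4:**
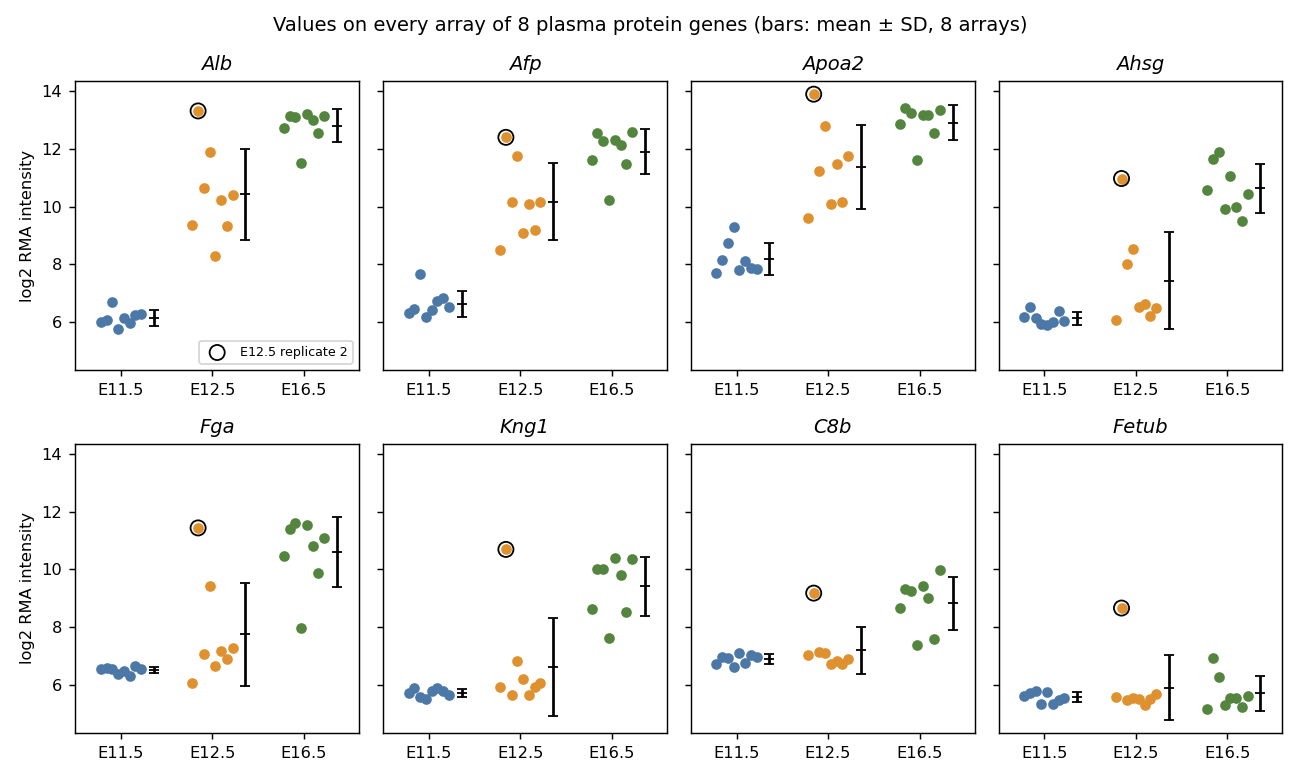
Log2 intensity (y axis) of 8 of the genes on every array (points) at E11.5, E12.5 and E16.5 (x axis), with the mean and SD of 8 arrays beside each stage and a ring around E12.5 replicate 2. Alb, Afp and Apoa2 are spread between the other stages at E12.5, Ahsg, Fga, Kng1 and C8b lie near their E11.5 level on most E12.5 arrays, and Fetub is low at every stage apart from the ringed array and 2 arrays of E16.5.

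The apolipoprotein genes fell into 2 sorts. Apoa1 and Apoa2, which encode the main proteins of high-density lipoprotein, were higher at both steps, and Apob, Apoh and Apom were called at the second and not at the first (2 and then 5 of 5 genes). Over all genes 0.331% were called higher at the first step and 11.49% at the second. Apoa2 was at 7.71, 8.0 and 9.30 at E11.5, 9.62, 11.35 and 13.90 at E12.5 and 11.62, 13.17 and 13.41 at E16.5. Apoa1 was at 7.65, 7.89 and 8.01 at E11.5, 8.88, 10.05 and 12.65 at E12.5 and 10.35, 12.08 and 12.502 at E16.5. Neither gene's E12.5 arrays overlapped those of E11.5. The first step was 3.19 ± 0.45 for Apoa2 (adjusted p = 0.00109) and 2.32 ± 0.42 for Apoa1 (adjusted p = 0.0129), and the second 1.54 ± 0.45 (adjusted p = 0.0114) and 1.61 ± 0.42 (adjusted p = 0.00497). Apob encodes the structural protein of the lipoproteins that export triglyceride and cholesterol. Apob was at 6.70, 6.96 and 7.10 at E11.5, 6.87, 7.31 and 10.98 at E12.5 and 7.18, 9.40 and 9.88 at E16.5. Apoh, beta-2-glycoprotein I, which binds phospholipid, was at 5.57, 5.80 and 6.08 at E11.5, 5.57, 5.79 and 10.27 at E12.5 and 7.22, 9.39 and 10.29 at E16.5. Apart from replicate 2 the Apoh values of E12.5 did not exceed 6.11, and its second step was 2.66 ± 0.53 with all arrays (adjusted p = 0.000381) and 3.22 ± 0.34 without that array. Apom, a carrier of sphingosine-1-phosphate, was at 6.11, 6.54 and 6.67 at E11.5, 6.04, 6.93 and 9.03 at E12.5 and 6.66, 8.13 and 9.34 at E16.5. The second step was 1.23 ± 0.45 for Apob (adjusted p = 0.0451) and 1.0 ± 0.36 for Apom (adjusted p = 0.0373), both near the threshold with all arrays and at adjusted p = 0.000134 and 0.00213 without replicate 2.

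None of the 10 genes of coagulation and fibrinolysis was called at the first step, with or without E12.5 replicate 2, although 5 were higher at an unadjusted p under 0.05 with all arrays. At the second step 6 of the 10 were higher (11.49% of all genes), and 10 of 10 without replicate 2 (11.77% of all genes). The 3 fibrinogen genes encode the chains of the clotting protein, and Fgg had the largest second-step change of the 33 genes. Fga was at 6.33, 6.54 and 6.66 at E11.5, 6.06, 7.13 and 11.44 at E12.5 and 7.98, 10.95 and 11.61 at E16.5. Fgb was at 6.19, 6.44 and 6.84 at E11.5, 6.48, 7.21 and 10.82 at E12.5 and 7.79, 10.41 and 11.17 at E16.5. Fgg was at 5.29, 5.58 and 5.98 at E11.5, 5.84, 6.42 and 11.60 at E12.5 and 8.85, 10.47 and 11.48 at E16.5. In these 3 neighbouring genes replicate 2 stood in the E16.5 range for Fga and Fgb and above it for Fgg, and replicate 4 was the second highest, while the other 6 E12.5 arrays did not exceed 7.28 for Fga, 7.61 for Fgb and 6.65 for Fgg. The second step was 2.85 ± 0.58 for Fga (adjusted p = 0.000477), 2.46 ± 0.51 for Fgb (adjusted p = 0.000546) and 3.27 ± 0.57 for Fgg (9.62-fold, adjusted p = 7.85e-05), and 3.37 ± 0.44, 2.92 ± 0.39 and 3.90 ± 0.31 without replicate 2. The second, dimmer probe set of Fga averaged 6.51, 6.78 and 8.61 at E11.5, E12.5 and E16.5, against 6.51, 7.75 and 10.60 for the one used.

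Kng1, kininogen, the precursor of bradykinin, was at 5.51, 5.75 and 5.90 at E11.5, 5.64, 5.99 and 10.70 at E12.5 and 7.61, 9.91 and 10.39 at E16.5. Its second step was 2.81 ± 0.53 (adjusted p = 0.000225) and 3.39 ± 0.31 without replicate 2, and 6 of the 8 E12.5 arrays were below their lower quartile. F2, prothrombin, was at 6.42, 6.84 and 7.09 at E11.5, 6.54, 7.41 and 10.16 at E12.5 and 8.47, 9.48 and 11.07 at E16.5, with a second step of 1.63 ± 0.39 (adjusted p = 0.00244). F10, coagulation factor X, was at 7.5, 7.73 and 7.83 at E11.5, 7.46, 7.80 and 9.25 at E12.5 and 7.82, 8.61 and 8.77 at E16.5, with a second step of 0.55 ± 0.18 (adjusted p = 0.025). The other 4 did not pass at the second step with all arrays. They were Plg, plasminogen (1.12 ± 0.44, adjusted p = 0.0645), Serpinc1, antithrombin (0.64 ± 0.31), Serpinf2, the plasmin inhibitor alpha-2-antiplasmin (0.47 ± 0.25), and Proc, the anticoagulant protein C (0.25 ± 0.17). Over the whole span 9 of the 10 were higher (13.85% of all genes), and Proc, with a change of 0.44 ± 0.17, had an adjusted p of 0.0529. Without replicate 2 the 4 were called at the second step, at 1.55 ± 0.31, 0.97 ± 0.18, 0.68 ± 0.21 and 0.39 ± 0.14 in the same order, with the highest adjusted p, 0.0419, for Proc.

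In the inter-alpha-trypsin inhibitors, heavy chains such as those of Itih1, Itih2 and Itih3 are joined to bikunin, one of the products of Ambp. These chains can bind hyaluronan in the extracellular matrix. Of the 5 genes of this family with Ambp, 1 was higher at the first step and 5 at the second. Over all genes these shares were 0.331% and 11.49%. Ambp was at 6.21, 6.62 and 6.95 at E11.5, 7.65, 8.81 and 11.79 at E12.5 and 9.13, 10.81 and 11.47 at E16.5. It changed by 2.47 ± 0.49 at the first step (5.55-fold, adjusted p = 0.0257) and by 1.48 ± 0.49 at the second (adjusted p = 0.0266). The first-step call was lost without E11.5 replicate 7 or without E12.5 replicate 4, with an adjusted p of up to 0.0547. Without E12.5 replicate 2 the adjusted p was 0.0131. Itih2 was at 6.62, 6.84 and 7.02 at E11.5, 7.13, 7.72 and 11.04 at E12.5 and 7.70, 9.78 and 10.56 at E16.5. Its E12.5 arrays lay above those of E11.5 without overlap, by 1.33 ± 0.44 (adjusted p = 0.182), and its second step of 1.47 ± 0.44 was past the threshold (adjusted p = 0.0128). Itih3 was at 6.77, 6.97 and 7.14 at E11.5, 6.81, 7.23 and 8.69 at E12.5 and 7.58, 9.05 and 9.69 at E16.5, and changed by 1.58 ± 0.26 at the second step (adjusted p = 4.32e-05). Its neighbours moved less. Itih4 was at 6.52, 6.85 and 7.09 at E11.5, 6.63, 6.74 and 9.22 at E12.5 and 7.18, 7.94 and 9.11 at E16.5, with a second step of 0.91 ± 0.31 (adjusted p = 0.0281). Itih1 was at 6.55, 6.78 and 7.06 at E11.5, 6.54, 6.79 and 7.71 at E12.5 and 6.68, 7.36 and 7.67 at E16.5, with a second step of 0.41 ± 0.15 (adjusted p = 0.0427).

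Of the 3 terminal complement genes, whose products form the membrane attack pore, only C8b was called, and its neighbour C8a was not. C8b was at 6.62, 6.96 and 7.10 at E11.5, 6.72, 6.96 and 9.18 at E12.5 and 7.37, 9.13 and 10.00 at E16.5. Its change was 0.31 ± 0.33 at the first step (adjusted p = 0.681) and 1.63 ± 0.33 at the second (3.09-fold, adjusted p = 0.000506), or 1.91 ± 0.27 without replicate 2. C8a was at 6.39, 6.57 and 6.67 at E11.5, 6.31, 6.59 and 7.28 at E12.5 and 6.43, 6.82 and 7.06 at E16.5, and changed by 0.23 ± 0.11 over the span (adjusted p = 0.124). C9 was at 5.08, 5.31 and 5.61 at E11.5, 5.06, 5.26 and 6.67 at E12.5 and 5.0, 5.21 and 6.12 at E16.5, with a change over the span of 0.05 ± 0.18 (adjusted p = 0.858). The difference in response between the neighbours C8b and C8a was not tested.

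Other genes of liver were counted in the same fits. Of 41 further plasma proteins of liver, 0 were higher at E12.5 than at E11.5, 11 were higher at E16.5 than at E12.5 (24 without E12.5 replicate 2) and 19 were higher at E16.5 than at E11.5, with 0 lower in each. Over all genes 0.331%, 11.49% (11.77% without that array) and 13.85% were called higher. The median change of the 41 over the span was 0.34, against 2.63 for the 33. Hp, the haemoglobin carrier haptoglobin, averaged 8.90 ± 1.06 at E16.5, against 6.84 ± 0.31 at E11.5 (SD, n = 8; adjusted p = 0.000406), and Apoc1, an apolipoprotein, 9.10 ± 0.55 against 6.84 ± 0.66 (adjusted p = 0.00197). Of 15 liver transcription factors, 3 were higher over the span, a share near the 13.85% of all genes. These were Prox1, a regulator of hepatoblast growth (7.79 ± 0.33 at E16.5 against 7.03 ± 0.30 at E11.5), Cebpa (8.16 ± 0.26 against 7.62 ± 0.34) and Foxa3 (6.90 ± 0.33 against 6.43 ± 0.14). Of 30 liver enzymes and transporters, 4 were higher over the span, a share like the 13.85% of all genes, with a median of 0.23 over the list. At the second step 2 were higher and 1 lower with all arrays, and 12 higher and 1 lower without replicate 2. The shares of all genes were 11.49% higher and 15.6% lower, and 11.77% and 15.4% without that array. Aadac, an esterase of the endoplasmic reticulum, averaged 7.59 ± 0.92 at E16.5 against 5.66 ± 0.25 at E11.5 (adjusted p = 0.000349), and Gys2, liver glycogen synthase, 7.26 ± 0.74 against 5.87 ± 0.13 (adjusted p = 0.00164).

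Markers of cells that can hold or make such transcripts are given for the same arrays. Of 10 hepatocyte markers 7 were matched, and their mean per array lay between 6.71 and 7.02 at E11.5, 6.83 and 8.99 at E12.5 (8.99 on replicate 2) and 7.03 and 7.69 at E16.5. Over the span 4 of the 7 were higher, Prox1, Cebpa, Foxa3 and Gys2, against 13.85% of all genes, and Hnf4a, Cps1 and Tat were not called. Of 13 markers of yolk sac and foregut endoderm, 0 changed at the first step, 3 were higher at the second and 2 higher and 1 lower over the span, with means of 6.93 to 7.19 at E16.5 against 6.92 to 7.13 at E11.5. Of 12 genes of red blood cell precursors, 0 changed at the first step, and at the second 1 was higher (Tfrc, the transferrin receptor) and 2 lower, the embryonic globins Hba-x (8.07 ± 0.54 at E16.5, against 12.87 ± 0.35 at E12.5) and Hbb-y (9.34 ± 1.47, against 13.55 ± 0.09). Of 15 markers of liver sinusoidal endothelium, stellate and Kupffer cells, 4 were higher and 1 lower at the second step, and their mean per array lay between 6.94 and 7.11 at E16.5, against 6.77 and 7.14 at E12.5. Over all genes 11.49% were called higher and 15.6% lower at the second step, and 13.85% and 19.63% over the span. The part of each of these cell types in the plasma protein values was not tested.

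Within E16.5, replicates 1 to 4 were set beside replicates 5 to 8 as a description. Of the 33 genes, 11 were higher in replicates 1 to 4 and 22 in replicates 5 to 8, with 0 that did not overlap. The differences ran between -1.04 (Serpina6) and 0.75 (Ahsg), replicates 1 to 4 minus 5 to 8, with a median of -0.15.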

How the data were processed

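The authors deposited RMA values on a log2 scale for 24 Affymetrix Mouse Gene 1.0 ST arrays. Per the submitters' processing notes the tools were Affymetrix Expression Console 1.1, RMA and R 2.9.2. The scale was read from the values (2.56 to 14.1), and whether the stages were normalized together is not given in the sources used here. Precision is limited by the number of arrays.

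Of 24200 probe sets, 20760 with 1 gene symbol were used and the brightest kept per gene (19351 genes). Stages were taken from the labels. The test was limma 3.58.1 under R 4.3.3, with lmFit and eBayes on 24 arrays, 1 coefficient per stage, two-sided p-values, the Benjamini-Hochberg adjustment across all 19351 genes and a threshold of 0.05. The script was tested on simulated data. Stage values are named for genes called at either step, and of each further list at most 4 called genes are named. The 33 genes and the lists were chosen with earlier results of these data known. The 10 late liver genes, the unequal-variance test and the results without E12.5 replicate 2 were added after the values were seen. Listed genes without a match were not analysed here. Tables were made with Python 3.11.15 and pandas 2.3.3.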

Additional observations from a re-analysis of the deposited data

Results flagged for a closer look

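For each gene and stage, the gap of the highest or lowest array to its nearest neighbour was divided by the range of the 8 arrays and set against Dixon's critical value. It was exceeded in 23 of 99 sets of a gene and a stage, where chance in independent sets gives about 1 in 20. The genes of a stage share their arrays, so these sets are not independent and the counts are a description. E12.5 replicate 2 accounted for 16 of them, all high. On it the carriers Fetub, Hpx and Vtn were at 8.66, 8.52 and 10.36, and the apolipoprotein genes Apob and Apoh at 10.98 and 10.27. The coagulation genes Fgb, Fgg, F10, Proc, Serpinc1 and Kng1 were at 10.82, 11.6, 9.25, 7.64, 9.94 and 10.7. Itih1, Itih3 and Itih4 were at 7.71, 8.69 and 9.22, and the complement genes C8b and C9 at 9.18 and 6.67. Of the genes that did not exceed it on that array, Alb, Afp, Apoa1 and Apoa2 had widely spread values on the other E12.5 arrays.

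E16.5 replicate 4 accounted for 4, all low: Alb at 11.53, Fga at 7.98, F10 at 7.82 and Itih2 at 7.7. At E11.5, Afp was high on replicate 3, at 7.66, and Hpx low on replicate 4, at 6.19. Proc was high on E16.5 replicate 5, at 7.68.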

How the results depend on the processing

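With all arrays, 7, 25 and 28 of the 33 genes were higher at E12.5 against E11.5, E16.5 against E12.5 and E16.5 against E11.5, and 0 were lower in any of the 17 alternatives or with any 1 of the 24 arrays left out. Leaving out 1 array gave 6 to 8, 17 to 30 and 28 to 30. The first-step count was 4 in a fit of the 2 stages alone, and 0 in the unmoderated unequal-variance test, with all arrays or with 7 at E12.5. Over all genes the first step gave 64 higher and 11 lower calls, 131 and 20 without E12.5 replicate 2 and 0 in the unequal-variance test. The second-step count was 15 without E16.5 replicates 5 to 8 and 13 in the unequal-variance test. The number without overlap at the second step, 0, was 7 without E12.5 replicate 2 and 18 without replicates 2 and 4. Over all genes these shares were 4.69%, 5.33% and 5.72%. The replicate number as a block gave 7, 26 and 29. Deviations of same-numbered arrays from their stage means, over all genes, correlated between -0.28 and 0.09, with 0 of 24 pairs over 0.1. This gives no sign of pairing by number, but cannot show whether such arrays share an embryo or a batch.

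Sign changes concerned genes that were not called. At the first step without E12.5 replicates 2 and 4, Fetub was at -0.057, Hpx at -0.108, Apoh at -0.0081, Itih1 at -0.084, Itih4 at -0.126, C9 at -0.065, Proc at -0.023 and C8b at -0.0067. Leaving out 1 array gave -0.054 to 0.428 for Fetub, -0.041 to 0.273 for Hpx, -0.019 to 0.653 for Apoh, -0.041 to 0.127 for Itih1, -0.108 to 0.263 for Itih4 and -0.091 to 0.139 for C9, the lowest in each without E12.5 replicate 2. At the second step Fetub was at 0.19 without E12.5 replicates 2 and 4 and 0.0050 without E16.5 replicates 5 to 8, where C8a was at -0.034. C9 was at 0.113 without E12.5 replicates 2 and 4, 0.0074 with arrays centred on the 75th percentile and 0.031 with array weights. Leaving out 1 array gave -0.380 to 0.186 for Fetub and -0.150 to 0.14 for C9, the highest in each without E12.5 replicate 2. Over the span Fetub was at -0.080 without E16.5 replicates 1 to 4, and leaving out 1 array gave -0.041 to 0.207 for Fetub and -0.059 to 0.1003 for C9. The cause of these changes was not tested. Signals near the lower quartile limit the changes of 13 genes at E11.5.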
